A study of Mus musculus with 61 samples.

Results

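Endothelial and blood genes were followed in mouse stembryos, aggregates of embryonic stem cells that elongate into a structure with features of the posterior body axis after a pulse of the Wnt agonist Chiron. The set holds 10 genes out of 55052 in the deposited table, chosen by symbol from what is known of the haemangioblast, endothelial and primitive blood lineages: the transcription factors Etv2, Tal1, Gata1 and Runx1, the receptors Kdr and Tie1, the surface proteins Cdh5 and Pecam1, and the embryonic globins Hbb-bh1 and Hba-x. All 10 were found in the table. RNA-seq was available for 61 libraries in 28 conditions. A wild-type time course ran from 72 h to 144 h after aggregation in steps of 12 h and ended at 168 h, in duplicate (2 libraries) at each of the 8 stages. Other wild-type libraries were available from 96 h (4), 120 h (4) and 144 h (2). The mutants changed CTCF binding sites (CBS) or their surroundings at the HoxD locus. Del(CBS1), Del(CBS1-2), Del(CBS2), Del(d1-d4), Del(CBS1-5), Del(sub-TAD1) and Ins(2xCBS-d4d8) were sampled at both 96 h and 120 h, and Del(CBS1-5) also at 144 h. Del(CBS4) was sampled at 120 h and at 144 h. Each mutant condition had 2 libraries, except Del(sub-TAD1) at 96 h with 3.

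The wild-type cells were the embryonic stem cell line EmbryoMax 129/SVEV, and most mutants were homozygous clones made in it by CRISPR-Cas9. Del(CBS1-2) was made on top of Del(CBS1), and Ins(2xCBS-d4d8) carries a cassette with extra CTCF sites. Those of Del(sub-TAD1) and Del(CBS1-5) came from blastocysts of mutant mice of another background, and Del(sub-TAD1) also carries an Mtx2 transgene, so for these lines the mutation and the origin of the line cannot be told apart. Stembryos were pooled for each library. From 108 h onward, those that elongated were chosen. The labels do not say whether replicates came from separate clones or cultures, so p-values measure the spread between these libraries.

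In the embryo, Etv2 acts at the top of the haemangioblast program, and Kdr, the main VEGF receptor, marks the mesoderm from which endothelium and blood arise. Tal1 works with GATA factors and E-proteins in both lineages, Gata1 drives the erythroid program, and Runx1 is needed for definitive blood to form from endothelium. Cdh5 (VE-cadherin), Pecam1 (CD31) and Tie1 are carried by differentiated endothelial cells, and Hbb-bh1 and Hba-x encode globins of primitive red cells. Pecam1 is also known from the surface of embryonic stem cells, Kdr from lateral mesoderm before endothelium appears, and Runx1 from several tissues outside blood.

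Depth, inferred from the steps that FPKM (fragments divided by transcript length and by the mapped total) makes at low levels, lay between 15 M and 39.0 M fragments per library (M, mega), with a median of 24.0 M. A level of 3 fragments then corresponded to 0.0866 to 0.225 FPKM for Etv2 and to 0.170 to 0.442 FPKM for Hbb-bh1, and lower values were read as not detected. These limits cover counting error only, and they are less certain in library set 1 (below), where fewer low values fell on whole steps. The libraries fell into 2 sets: the summed FPKM of processed pseudogenes was 92034 to 106947 in 28 libraries and 4654 to 8332 in 33. Set 1 held replicates 1 to 3 of the wild type outside the time course at 96 h and at 120 h, Del(CBS1), Del(CBS1-2), Del(CBS2), Del(d1-d4), Del(CBS1-5) at 96 h and 120 h, and Del(sub-TAD1) at 120 h, and set 2 held the others. Each mutant was compared with wild type of its stage within its set, and at 96 h and 120 h the wild type of set 2 was replicate 4 with both time-course libraries. Hoxd3, which lies in the deleted segment of Del(d1-d4), was listed at 0 in its 4 libraries and between 10.3 and 30.9 FPKM in the 12 wild-type libraries at 96 h and 120 h. Time-course replicate 1 at 120 h stood apart from the other wild-type libraries of its stage for the genes described here (143 FPKM summed over an endothelial list, against 24.1 to 37.0). The main results that rest on it are given with and without it.

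Of the 10 genes, 6 reached a mean of 1 FPKM in a condition and entered the fit over 17098 genes (Etv2, Kdr, Cdh5, Pecam1, Tie1 and Runx1). Changes are log2 differences of FPKM + 0.1 with their standard error (SE), and a gene was called at an adjusted p under 0.05 (limma, Benjamini-Hochberg over all genes tested). Tal1, Gata1, Hbb-bh1 and Hba-x stayed under that level and are given as values. In bulk samples such as these, fewer cells of a type and less RNA per cell cannot be told apart.

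On mm10 the receptor genes lie at chr5:75932827-75978458 (Kdr) and chr4:118471191-118490061 (Tie1), both on the minus strand, and Cdh5 at chr8:104101625-104144511 on the plus strand, where an antisense gene, Gm29682, overlaps it. Pecam1 is at chr11:106654217-106750628, Etv2 at chr7:30633616-30635852, and Tal1 at chr4:115056426-115071755. The blood genes are at chrX:7959260-7978071 (Gata1), chr16:92601466-92826149 (Runx1), chr7:103841637-103843164 (Hbb-bh1) and chr11:32276400-32278116 (Hba-x). The promoters, taken as 250 bases before and 50 after the start of each gene in RefSeq (GRCm38.p6), were available for 7 of the 10 genes, in 9 windows, and Cdh5, Pecam1 and Hbb-bh1 had no entry. Short motifs of factors active in these lineages were searched on both strands: CGGAAG, the core read by ETS factors such as Etv2, AGATAA, read by GATA factors, and CAGATG, the E-box that Tal1 complexes bind. To show what such a match looks like in a receptor of each kind and in a transcription factor of the set, 30 bases around 1 match in Kdr, Tie1 and Tal1 are given, 5′ to 3′ on the strand of the gene, with the motif in capitals (for Tal1 the match is on the opposite strand and reads as its reverse complement).
Kdr, E-box, chr5:75978617-75978646: cagatttgctctCAGATGcgacttgccgcc
Tie1, ETS core, chr4:118490064-118490093: cttctcaataggCGGAAGccactggcttcc
Tal1, GATA, chr4:115056209-115056238: ctatagagtcttTTATCTttgagcaattcc
The ETS core was found in 1 of the 9 windows (Tie1) and in 16.9% of all 32851 promoters of the same length. The GATA motif was found in 1 (Tal1) and in 11.2% of all, and the E-box in 3 (Kdr, Tal1 and Tie1) and in 17.2% of all. Each match is a description of the letters in the window and was not tested as a binding site.

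The time course asked when the lineage genes appear in wild-type stembryos. Cdh5 and Tie1 stayed under 0.5 FPKM up to 108 h, and every wild-type library at 144 h was at 3.37 FPKM or above. Cdh5, the adherens junction cadherin of endothelium, was at 0.0367 and 0.0147 FPKM at 72 h, 0.174 and 0.304 at 84 h, 0.0918 and 0.0845 at 96 h, 0.450 and 0.304 at 108 h, 9.06 and 0.404 at 120 h, 0.467 and 1.72 at 132 h, 8.0 and 7.80 at 144 h, and 3.53 and 4.57 at 168 h (replicates 1 and 2). At 120 h the libraries lay far apart, and from 132 h to 144 h they did not overlap. In the other wild-type libraries Cdh5 was at 6.56 and 6.40 FPKM at 144 h, between 0.0987 and 0.376 at 120 h and between 0.0358 and 0.0843 at 96 h, so that among 6 wild-type libraries at 120 h only time-course replicate 1 was high. Cdh5 rose by 2.98 ± 0.70 (SE) on the log2 scale from 132 h to 144 h (adjusted p = 0.00874, limma). The call was lost without replicate 1 at 132 h (2.14, adjusted p = 0.198) and without replicate 1 or 2 at 144 h (adjusted p = 0.0713 and 0.069).

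Tie1, an orphan receptor of the angiopoietin system, had a like course. It was listed at 0 in both libraries at 72 h and stood at 0.197 and 0.171 FPKM at 108 h, 6.06 and 0.274 at 120 h, 0.249 and 0.660 at 132 h, 3.37 and 3.43 at 144 h, and 1.92 and 2.48 at 168 h. Again 1 library at 120 h was high, and all libraries at 144 h lay above both at 132 h. It rose by 2.42 ± 0.71 from 108 h to 120 h (adjusted p = 0.0319) and by 2.77 ± 0.71 from 132 h to 144 h (adjusted p = 0.0157). Without time-course replicate 1 at 120 h, the first of these steps was 0.40 ± 0.64 (adjusted p = 0.953), and it was also not called without either library at 108 h (2.49 and 2.35, adjusted p = 0.135 and 0.141). The second was called without that library, but not without replicate 1 at 132 h (adjusted p = 0.201) or without replicate 1 or 2 at 144 h (adjusted p = 0.104 and 0.111).

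Kdr, the VEGF receptor, had unequal replicates at 96 h and at 120 h. It was at 0.674 and 0.117 FPKM at 72 h, 0.718 and 5.10 at 96 h, 0.971 and 1.10 at 108 h, 13.3 and 0.577 at 120 h, 0.791 and 1.53 at 132 h, 4.95 and 5.26 at 144 h, and 2.65 and 3.45 at 168 h. The high library was replicate 2 at 96 h and replicate 1 at 120 h. Outside the time course Kdr lay between 0.171 and 0.743 FPKM at 96 h, between 0.204 and 0.564 at 120 h, and at 7.29 and 7.07 at 144 h. Its step from 132 h to 144 h was 2.11 ± 0.84 (adjusted p = 0.154) and was not called.

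Pecam1, an adhesion molecule of endothelial junctions, was higher than Cdh5, Kdr and Tie1 at the start. It was at 1.11 and 0.987 FPKM at 72 h, stood at 0.253 and 0.422 at 108 h, and was at 4.40 and 4.63 at 144 h and 3.97 and 3.46 at 168 h. None of its steps was called (132 h to 144 h, 1.91 ± 0.73, adjusted p = 0.130). With a level of at least 1 FPKM in both libraries as the criterion, Kdr, Cdh5, Pecam1 and Tie1 all first met it at 144 h, and Etv2 met it at all 8 stages. At 0.5 FPKM Kdr first met it at 96 h, Pecam1 at 72 h and Runx1 at 108 h, while Cdh5 and Tie1 still did at 144 h, and at 2 FPKM Etv2 met it at 4 stages, from 96 h.

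**Figure D1:**
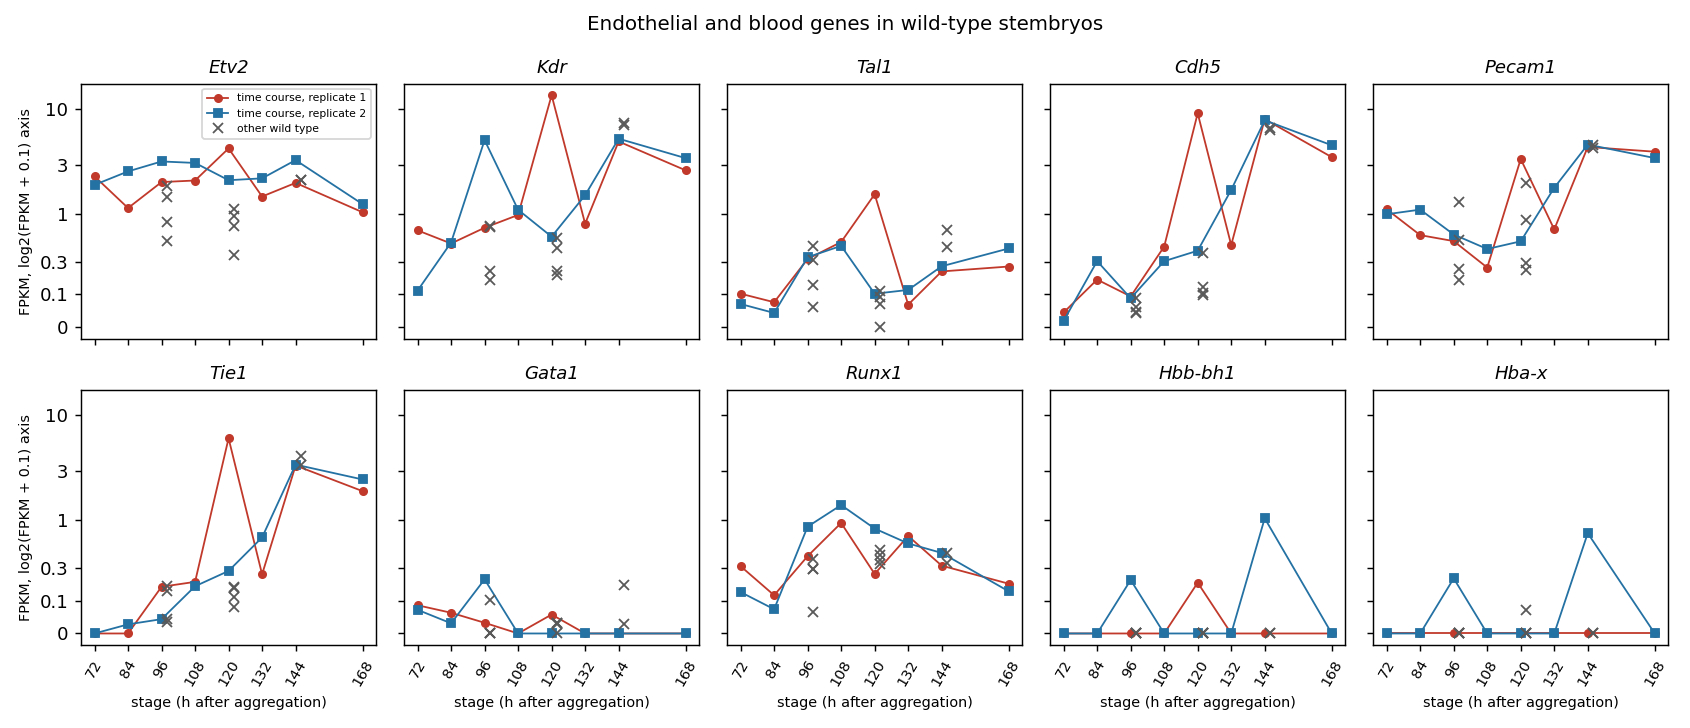
FPKM of the 10 genes in wild-type stembryos against stage in hours, on a log2(FPKM + 0.1) axis with 1 point per library. Red circles and blue squares are time-course replicates 1 and 2, and crosses (set 2 h to the right) are the other wild-type libraries. Kdr, Tal1, Cdh5 and Tie1 are high at 120 h in replicate 1 but not in replicate 2 or the other wild-type libraries. Pecam1 at 120 h is highest in replicate 1 (3.39 FPKM), followed by wild-type replicate 3 outside the time course (1.99). All libraries at 144 h are high for Kdr, Cdh5, Pecam1 and Tie1. Gata1 and both globins stay at or near 0, except in time-course replicate 2 at 144 h, with 1.04 FPKM of Hbb-bh1 and 0.731 of Hba-x.

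Etv2, the ETS factor at the head of the haemangioblast program, was above 1 FPKM in every library of the time course. It was at 2.32 and 1.92 FPKM at 72 h, 2.04 and 3.21 at 96 h, 4.27 and 2.13 at 120 h, 2.01 and 3.31 at 144 h, and 1.03 and 1.24 at 168 h. The levels of adjacent stages overlapped except for the last, which was lower in both libraries than at 144 h, with a step of -1.12 ± 0.44 (adjusted p = 0.107). Tal1, the partner of GATA factors in blood and endothelium, reached 0.505 and 0.458 FPKM at 108 h and 1.56 in time-course replicate 1 at 120 h, against 0.103 in replicate 2. It was at 0.678 and 0.447 FPKM in wild-type replicates 1 and 2 at 144 h, which are not of the time course. Runx1, the factor of definitive blood, was highest at 108 h, with 0.124 and 0.0668 FPKM at 84 h, 0.411 and 0.854 at 96 h, 0.931 and 1.40 at 108 h, 0.251 and 0.816 at 120 h, and 0.186 and 0.143 at 168 h. Both libraries at 108 h lay above all other wild-type libraries at any stage. Runx1 rose by 1.85 ± 0.45 from 84 h to 96 h (adjusted p = 0.00221), and the call was lost without replicate 2 at 96 h (1.40, adjusted p = 0.08). An antisense gene, Gm26626, overlaps Runx1. Libraries were stranded, but the strand setting of the quantification is not given in the sources used here.

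Over the 7 steps between adjacent stages, 4 of 42 tests (9.52%) were called, all as rises, beside 10.2% over all genes, and 12 had an unadjusted p under 0.05 (limma). Of all genes, 13.5% to 30.1% had such an unadjusted p, depending on the step. By step, the shares of all genes called were 16.3% from 72 h to 84 h, 20.7% from 84 h to 96 h, 9.45% from 96 h to 108 h, 7.06% from 108 h to 120 h, 2.46% from 120 h to 132 h, 5.42% from 132 h to 144 h and 9.87% from 144 h to 168 h. The members called at these steps numbered 0, 1, 0, 1, 0, 2 and 0 of 6. Without time-course replicate 1 at 120 h, Cdh5 was also called from 72 h to 84 h (1.41 ± 0.50, adjusted p = 0.0456, limma). Kdr was then called from 84 h to 96 h (1.80 ± 0.66, adjusted p = 0.0498). The shares of all genes called at these steps were then 17.1% and 21.4%. Between 96 h and 120 h outside the time course (wild-type replicates 1 to 3), limma called 0 of 6, with 1 (Runx1) at an unadjusted p under 0.05. It called 24.2% of all genes there, and 33.2% had an unadjusted p under 0.05. Cdh5 was at 0.0843, 0.0532 and 0.0382 FPKM at 96 h and at 0.0987, 0.107 and 0.133 at 120 h in these libraries, which did not overlap but were all low.

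Gata1 and the globins stayed at or near the limit of detection in most libraries. Gata1, the erythroid master regulator, was above 0 in 29 of 61 libraries and never exceeded 0.276 FPKM. Hbb-bh1 was listed at 0 in 58 libraries and above 0 in 3 time-course libraries, with 1.04 FPKM in replicate 2 at 144 h (7.05 fragments), 0.209 in replicate 2 at 96 h (2.00 fragments) and 0.192 in replicate 1 at 120 h (2.00 fragments). Only the first of these lies above the limit of 3 fragments, and replicate 1 of the same stage was listed at 0. Hba-x was above 0 in 4 libraries and also highest in replicate 2 at 144 h, at 0.731 FPKM, the library in which the embryonic globin Hbb-y (0.851 FPKM) and the adult globin Hbb-bs (0.143 FPKM) had their highest values as well. In a fit without the filter on low values the steps of Hbb-bh1 from 132 h to 144 h (higher, adjusted p = 0.0479) and on to 168 h (lower, adjusted p = 0.0333) passed the threshold, as did that of Hba-x to 168 h (lower, adjusted p = 0.0420, limma). At these stages both genes were above 0 in that library alone, and no fold is given against stages listed at 0. A list of 20 primitive erythroid genes, including Gata1 and both globins, had 16 under 1 FPKM in every library, among them Klf1 (at most 0.358 FPKM), and Alas2 and Hbb-bt were listed at 0 throughout. The other 4 were Hbb-bh1, Zfpm1, Epor and Nfe2. Of 14 other haematopoietic genes 8 stayed under 1 FPKM, among them the pan-leukocyte gene Ptprc (at most 0.0722 FPKM), and Csf1r was listed at 0 throughout.

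The lists around these genes differed in how many members rose from 132 h to 144 h. Of the endothelial junction and surface list, which includes Cdh5 and Pecam1, 16 of 18 genes were tested and 12 rose from 132 h to 144 h (median log2 change 1.95, against 0.00 over all genes), among them Icam2 (3.32 ± 0.71), Cd34 (3.05 ± 0.54) and Esam (2.86 ± 0.63). Of 13 transcription factors tested 2 rose, Sox18 and Sox7, both known from early endothelium (2.37 ± 0.66 and 2.23 ± 0.62), and the summed level of that list overlapped between the stages (58.6 to 74.4 FPKM at 132 h, 70.9 to 89.1 at 144 h). In the VEGF and angiopoietin list 3 of 16 rose: the angiopoietins Angpt2 and Angpt1 (2.34 ± 0.40 and 1.78 ± 0.42) and Tie1. Of the arterial and Notch list the ligand Dll4 (2.67 ± 0.43) and the gap junction gene Gja4 (2.56 ± 0.40) rose and Notch1 fell (-0.76 ± 0.18), with a median of -0.04 over 11 genes, and its summed level was lower at 144 h (127 to 157 FPKM) than at 132 h (179 to 189). Other cell types moved at the same step. Of the cardiac and lateral plate list 8 of 10 rose, with its summed level going from 4.71 and 5.39 FPKM at 132 h to 51.7 and 80.8 at 144 h (15.5 and 13.4 in the other wild-type libraries of that stage), and of the definitive endoderm list 6 of 10 rose. Their part in the rise of the endothelial genes was not tested.

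From 108 h to 120 h, 5 of 16 junction and surface genes were called higher, among them Plvap, Cldn5 and Cd34. That count was 0 without time-course replicate 1 at 120 h and 15 without replicate 2. In these fits 3.06% and 9.64% of all genes were called at that step. The summed level of this list was 143 FPKM in replicate 1 at 120 h, 37.0 in replicate 2 and 24.1 to 25.3 in the 4 other wild-type libraries of that stage. In the same library the definitive endoderm list summed to 276 FPKM, against 65.1 in replicate 2, and the cardiac list to 25.3 against 4.81. Replicate 2 at 96 h, high for Kdr and holding 2.00 fragments of Hbb-bh1, was also high for the endoderm list (792 against 194 FPKM in replicate 1) and the cardiac list (59.0 against 6.94), whereas its Cdh5 level of 0.0845 FPKM lay beside the 0.0918 of replicate 1.

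The comparisons of mutants with wild type asked whether changes at the HoxD locus went with another level of these genes. Over 17 comparisons of 6 genes, 11 tests (10.8%) were called, 7 higher and 4 lower, beside 6.24% over all genes, and 30 had an unadjusted p under 0.05 (limma). The share of all genes at that unadjusted level ran from 5.09% to 40.4% by comparison. Except for Pecam1 in Del(CBS1-5) at 96 h, all calls were at 120 h. In set 1 at 120 h, wild-type replicates 1 to 3 had Cdh5 at 0.0987, 0.107 and 0.133 FPKM. The levels were 1.73 and 2.58 in Del(CBS1), 1.38 and 1.64 in Del(CBS1-2), and 1.87 and 1.13 in Del(CBS1-5), all above the wild type of this set. Cdh5 was higher by 3.38 ± 0.67 in Del(CBS1) (adjusted p = 0.00504), by 2.92 ± 0.67 in Del(CBS1-2) (adjusted p = 0.0262) and by 2.87 ± 0.67 in Del(CBS1-5) (adjusted p = 0.00634). Beside these the wild-type library of set 2 with 9.06 FPKM, time-course replicate 1, lay above every mutant library of the stage. Left-out libraries ended these calls in Del(CBS1) (without its replicate 1 or 2, 3.66 and 3.11, adjusted p = 0.0507 and 0.155), in Del(CBS1-2) (without its replicate 1 or 2, adjusted p = 0.221 and 0.399, or wild-type replicate 1 or 2, 0.0545 and 0.0528) and in Del(CBS1-5) (without its replicate 1, 2.54, adjusted p = 0.127). The 3 comparisons share their wild-type libraries and are not independent of each other.

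Kdr and Tie1 were higher in the same mutants by value. Kdr was at 0.204, 0.228 and 0.564 FPKM in wild type of set 1 at 120 h, at 2.50 and 3.53 in Del(CBS1), at 2.63 and 3.07 in Del(CBS1-2) and at 3.39 and 2.53 in Del(CBS1-5). No mutant library overlapped the wild type, and the change was called for Del(CBS1-5) (2.90 ± 0.87, adjusted p = 0.0338) but not for Del(CBS1) (2.92 ± 0.87, adjusted p = 0.110) or Del(CBS1-2) (2.86 ± 0.87, adjusted p = 0.146). Tie1 was at 0.0746, 0.167 and 0.159 FPKM in wild type and at 1.21 and 2.11 in Del(CBS1), where the change was called (2.89 ± 0.73, adjusted p = 0.0350). The Kdr call was lost without either Del(CBS1-5) library (adjusted p = 0.244 and 0.154) or wild-type replicate 1 or 2 (0.14 and 0.133), and the Tie1 call without either Del(CBS1) library (0.144 and 0.546) or any of the wild-type replicates (0.057 to 0.101). In Del(CBS1-2) Tie1 was at 1.13 and 1.34 FPKM (2.53 ± 0.73, adjusted p = 0.108), and in Del(CBS1-5) at 0.905 and 0.727 (1.99 ± 0.73, adjusted p = 0.0883). Etv2 was at 3.0 and 2.38 FPKM in Del(CBS1) and at 3.37 and 3.80 in Del(CBS1-2), above the 0.750 to 1.11 of the wild type of set 1, without passing the test (1.44 ± 0.54, adjusted p = 0.303, and 1.85 ± 0.54, adjusted p = 0.120). Against all wild-type libraries outside the time course, which mixes the sets, Etv2 was called in Del(CBS1), Del(CBS1-2) and Del(CBS1-5) (adjusted p = 0.00847, 0.00183 and 0.0119). Of all genes, 2.1%, 2.35% and 13.3% were called there in the same order. Tal1, not in the fit, was at 0.685 and 0.771 FPKM in Del(CBS1-2), against 0.0622, 0 and 0.115 in wild type.

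Del(CBS2) at 120 h had libraries that differed from each other. Cdh5 was at 1.89 and 0.255 FPKM, Kdr at 2.69 and 0.478, and Tie1 at 1.14 and 0.0678, so that replicate 1 resembled Del(CBS1). Replicate 2 lay above wild type of set 1 for Cdh5 (0.0987 to 0.133 FPKM). It overlapped wild type for Kdr and lay just below it for Tie1 (lowest wild type 0.0746). Del(sub-TAD1) at 120 h had Cdh5 at 0.694 and 0.679 FPKM, above wild type of its set in both libraries (1.89 ± 0.67, adjusted p = 0.0885). Del(d1-d4) had it at 0.0587 and 0.0662, below all wild-type libraries by value (-0.39 ± 0.67, adjusted p = 1). No member was called in these 3 mutants.

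The spread behind these tests depends on 1 library. Without time-course replicate 1 at 120 h, which is no control of set 1 but enters the shared estimate of the spread, the calls in mutants went from 11 to 17. Kdr and Tie1 were then called in Del(CBS1), Del(CBS1-2) and Del(CBS1-5), Etv2 in Del(CBS1-2), and Cdh5 also in Del(CBS2) (1.98 ± 0.42, adjusted p = 0.0299) and Del(sub-TAD1) (1.89 ± 0.42, adjusted p = 0.00350). Pecam1 was then also called at 144 h in Del(CBS1-5) (adjusted p = 0.0328) and at 96 h in Del(sub-TAD1) (adjusted p = 0.0349). Of the 11 calls, those of Kdr, Tie1 and Pecam1 in Del(CBS4) were lost.

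The shares of all genes called in set 1 at 120 h were 1.2% for Del(CBS1) with 2 of 6 members, 0.608% for Del(CBS1-2) with 1, 7.85% for Del(CBS1-5) with 3, 0.199% for Del(CBS2), 0.76% for Del(d1-d4) and 6.65% for Del(sub-TAD1), where Del(sub-TAD1), Del(d1-d4) and Del(CBS2) had 0. At 120 h in set 2 they were 12.4% for Del(CBS4) with 4 of 6 members, and 4.35% for Ins(2xCBS-d4d8) with 0. At 96 h 1 of 6 members was called in Del(CBS1-5), where 11.9% of all genes were called. No member was called at 96 h in Del(CBS1) (0.216%), Del(CBS1-2) (1.0%), Del(CBS2) (0.228%), Del(d1-d4) (0.626%), Del(sub-TAD1) (14.1%) or Ins(2xCBS-d4d8) (9.91%), nor at 144 h in Del(CBS1-5) (30.7%) or Del(CBS4) (3.42%). At an unadjusted p under 0.05, limma had 1 member in Del(CBS2) at 120 h, 1 in Del(d1-d4) at 120 h, 2 in Del(sub-TAD1) at 120 h and 1 in Ins(2xCBS-d4d8) at 120 h, and at most 2 in any of the others with no call. The shares of all genes at that level were 5.09%, 8.59%, 20.3% and 19.7% in that order, and 6.74% to 40.4% in the others with no call.

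**Figure D2:**
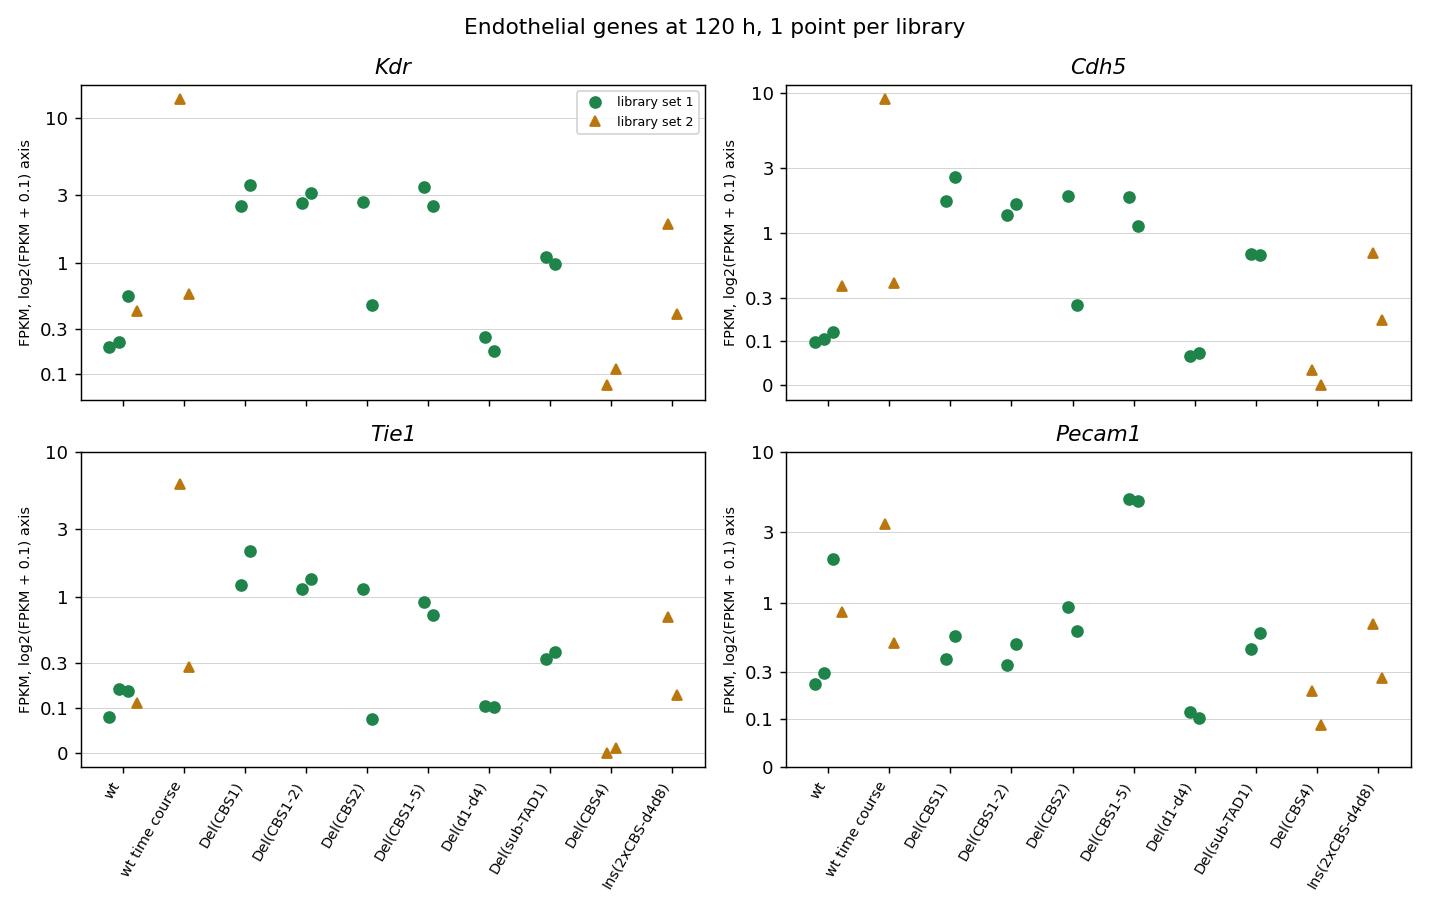
FPKM of Kdr, Cdh5, Tie1 and Pecam1 at 120 h on a log2(FPKM + 0.1) axis, with 1 point per library in the order of the replicates. Green circles are libraries of set 1 and brown triangles those of set 2. Del(CBS1), Del(CBS1-2) and Del(CBS1-5) lie above the wild type of set 1 for Kdr, Cdh5 and Tie1, Del(CBS4) lies below the wild type, and time-course replicate 1 reaches 13.3 FPKM of Kdr and 9.06 of Cdh5.

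The endothelial lists were not alike in these mutants. Of the 16 junction and surface genes tested, 6 were called higher in Del(CBS1) at 120 h (median 1.69), among them Cldn5 (3.27 ± 0.68), Emcn (3.23 ± 0.64) and Cd34 (2.74 ± 0.54). The count was 3 in Del(CBS1-2) (median 1.49) and 8 in Del(CBS1-5) (median 1.55), while the median over all genes lay between -0.03 and 0.01. In Del(CBS1), Del(CBS1-2) and Del(CBS1-5) in turn, 2, 1 and 3 of 13 transcription factors, 3, 1 and 4 of 16 VEGF and angiopoietin genes and 1, 0 and 1 of 11 arterial and Notch genes were called higher. The summed level of the arterial and Notch list was lower by value in these mutants (130 to 139 FPKM) than in wild type of set 1 (142 to 155). The ETS factor Erg rose in each of these mutants (2.91 ± 0.56, 2.30 ± 0.56 and 2.39 ± 0.56), as did Flt4, the receptor of VEGF-C (2.62 ± 0.54, 2.39 ± 0.54 and 1.69 ± 0.54). The definitive endoderm list moved beside them, with 5 of 10 genes called higher in Del(CBS1), 1 in Del(CBS1-2), 4 in Del(CBS1-5) and 7 in Del(sub-TAD1). Its summed level at 120 h was 172 to 185 FPKM in Del(CBS1), 124 to 132 in Del(CBS1-2), 238 to 254 in Del(CBS1-5), 172 to 193 in Del(sub-TAD1) and 42.5, 40.5 and 225 in wild-type replicates 1, 2 and 3. Wild-type replicate 3, high for endoderm, had Cdh5 at 0.133 FPKM, near replicates 1 and 2, and Tie1 at 0.159, between them. It was higher than both for Kdr (0.564 FPKM against 0.204 and 0.228) and Pecam1 (1.99 against 0.236 and 0.292). The cardiac list had no gene called in these mutants at 120 h. Their part in the endothelial result was not tested.

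Del(CBS4) at 120 h went the other way. Cdh5 was at 0.0281 and 0 FPKM, against 0.376, 9.06 and 0.404 in the wild type of set 2, and Kdr was at 0.0686 and 0.118, against 0.429, 13.3 and 0.577. Tie1 was at 0 and 0.00824 FPKM, against 0.115, 6.06 and 0.274, and Pecam1 at 0.205 and 0.0843, against 0.867, 3.39 and 0.514. For each of these genes both mutant libraries lay below all wild-type libraries of the set. For Cdh5 and Tie1 both also lay under the 0.1 FPKM added before the log, so the size of those changes depends on that value. The differences were -3.52 ± 0.67 for Cdh5 (adjusted p = 0.000409), -3.14 ± 0.87 for Kdr (adjusted p = 0.0142), -2.93 ± 0.73 for Tie1 (adjusted p = 0.00582) and -2.43 ± 0.65 for Pecam1 (adjusted p = 0.0107). Without time-course replicate 1 they were -2.11 ± 0.46 for Cdh5 (adjusted p = 0.00287), -1.64 ± 0.74 for Kdr (adjusted p = 0.167), -1.45 ± 0.52 for Tie1 (adjusted p = 0.0746) and -1.70 ± 0.66 for Pecam1 (adjusted p = 0.0971). Without either Del(CBS4) library the Kdr call (adjusted p = 0.11 and 0.1) and the Tie1 call (0.0545 and 0.072) were lost, and without its replicate 2 that of Pecam1 (0.188). The transcription factor Runx1, at 0.573 and 0.823 FPKM, lay within or near its wild-type range of 0.251 to 0.816.

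In Del(CBS4) at 120 h, 11 of 16 junction and surface genes were called lower (median -2.02), and 10 of 13 transcription factors, among them Lmo2 (-2.84 ± 0.40), Sox18 (-2.68 ± 0.74) and Erg (-2.57 ± 0.56). Without time-course replicate 1 the first count was 4 lower and 1 higher (median -1.02) and the second 7. Of the definitive endoderm list 7 of 10 were lower with and without that library, and 4 of 10 genes of the spinal cord list were higher, among them Pax6 (3.21 ± 0.53). The summed levels of other lists were lower too, with 1.97 to 2.53 FPKM for the cardiac list against 4.81 to 25.3 in wild type of set 2, 26.8 to 42.3 against 60.02 to 129 for the primitive streak list, and 15.1 to 19.9 against 59.5 to 87.5 for the pluripotency list. Summed mitochondrial mRNA was higher (13808 to 14280 FPKM against 7646 to 10536). Their part in the lower endothelial genes was not tested. At 144 h the Del(CBS4) libraries had Cdh5 at 2.36 and 3.69 FPKM and Kdr at 2.62 and 4.60, against 6.40 to 8.0 and 4.95 to 7.29 in wild type, lower in every library but not called (Cdh5, -1.25 ± 0.64, adjusted p = 0.275). Ins(2xCBS-d4d8) at 120 h had Cdh5 at 0.712 and 0.180 FPKM and Kdr at 1.90 and 0.402, inside or below the wild-type range of its set, with changes of -1.45 ± 0.67 and -0.75 ± 0.87 (adjusted p = 0.226 and 0.701). That range and these changes include time-course replicate 1. The other wild-type libraries of the set had Cdh5 at 0.376 and 0.404 FPKM and Kdr at 0.429 and 0.577. For both genes, replicate 1 of the mutant lay above these and replicate 2 below.

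**Figure D3:**
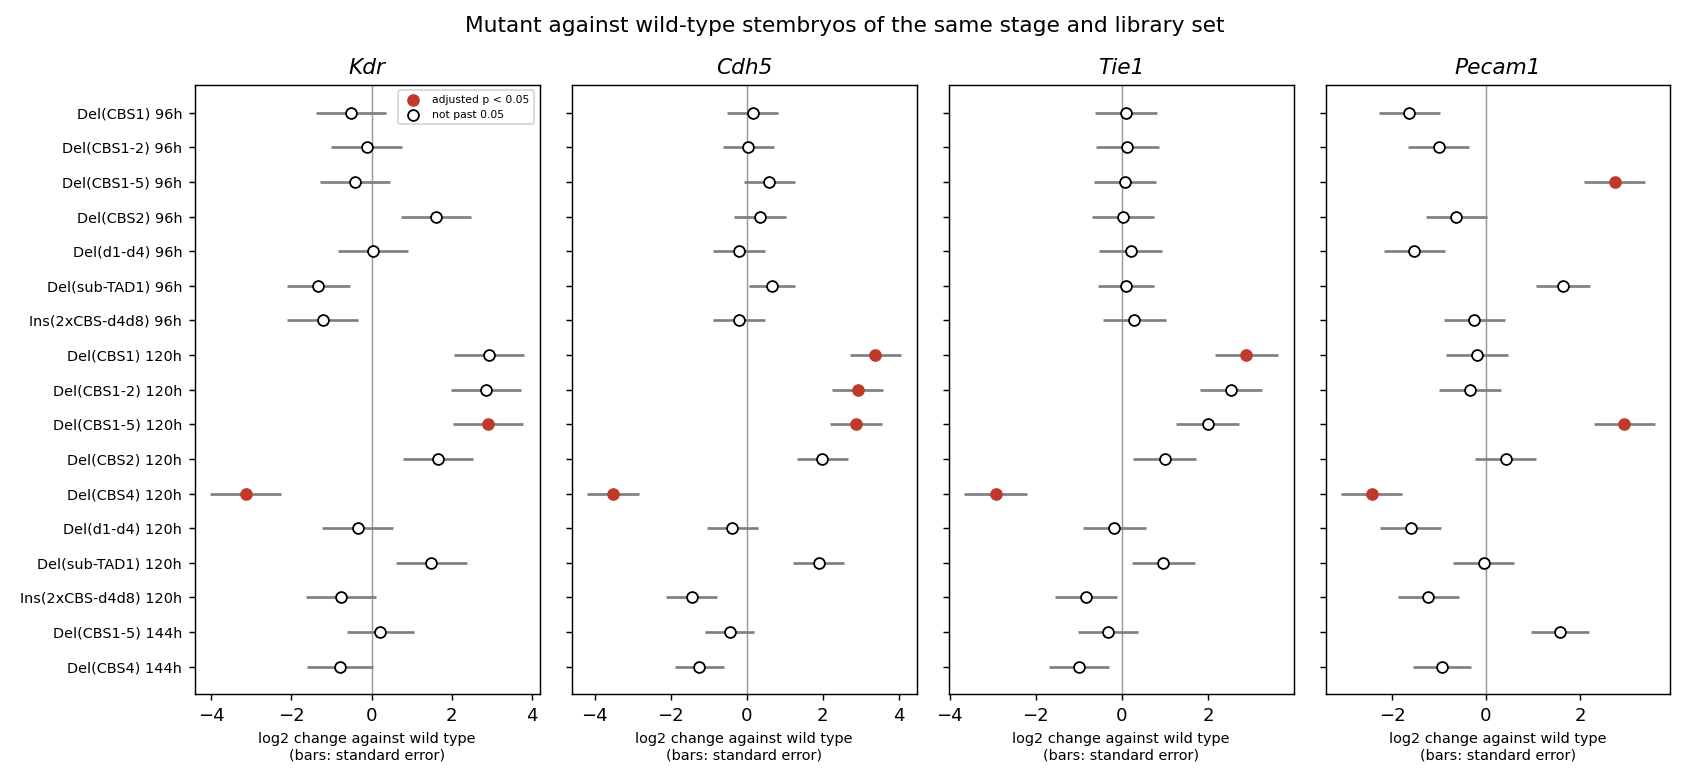
Log2 change of Kdr, Cdh5, Tie1 and Pecam1 in 17 mutant conditions against wild type of the same stage and library set, with bars for the standard error. Red points passed an adjusted p of 0.05 and open points did not. At 96 h the points of Cdh5 and Tie1 lie near 0, at 120 h Cdh5 spans -3.52 in Del(CBS4) to 3.38 in Del(CBS1), and Pecam1 in Del(CBS1-5) is high at each stage.

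At 96 h Cdh5 and Tie1 were low in every genotype. Cdh5 lay between 0.0190 and 0.177 FPKM over all mutant libraries of that stage, and Tie1 between 0.0697 and 0.156. Kdr was higher in some libraries of that stage, among them those of Del(CBS2) with 1.73 and 1.60 FPKM. Stage dependence of a mutant's effect was tested as the effect at the later stage minus that at the earlier. It was called for 1 of 54 tests, Cdh5 in Del(CBS1-5), whose effect fell by 3.32 ± 0.93 from 120 h to 144 h (adjusted p = 0.0228). It was not called without Del(CBS1-5) replicate 1 at 120 h (-2.99, adjusted p = 0.14), replicate 1 at 144 h (-3.11, adjusted p = 0.11) or replicate 2 at 144 h (-3.53, adjusted p = 0.0504). At 144 h Cdh5 was at 4.49 and 6.04 FPKM in Del(CBS1-5) and between 6.40 and 8.0 in wild type, where at 120 h the mutant had been the higher. The 120 h libraries of this comparison are of set 1 and those at 144 h of set 2. The share of all genes called for this pair was 7.66%. For the other pairs no member was called, at shares of 0.0117% for Del(CBS1), 0.0351% for Del(CBS1-2), 0.0117% for Del(CBS2), 0.0292% for Del(d1-d4), 0.0819% for Del(CBS1-5), 3.49% for Del(sub-TAD1) and 0.193% for Ins(2xCBS-d4d8) from 96 h to 120 h, and 2.55% for Del(CBS4) from 120 h to 144 h. Over the 9 pairs limma had 16 tests of members at an unadjusted p under 0.05, where the share of all genes ran from 3.90% to 21.7% by pair. For Cdh5 in Del(CBS1) the effect rose by 3.23 ± 0.95 from 96 h to 120 h (adjusted p = 0.375), so that the difference between these stages was not shown. Without time-course replicate 1 at 120 h this difference (3.23 ± 0.60, adjusted p = 0.00924) and that in Del(CBS1-2) (2.88 ± 0.60, adjusted p = 0.0358) were called. The shares of all genes called for these pairs were then 0.205% and 0.152%. In Del(CBS1-5) from 120 h to 144 h, the effects on Etv2 (-2.06 ± 0.66, adjusted p = 0.0460) and Tie1 (-2.31 ± 0.66, adjusted p = 0.0228, limma) were then called as well. The share of all genes for that pair was 8.62%.

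Pecam1 parted from Cdh5, Kdr and Tie1 in Del(CBS1-5) at 96 h and, by value, at 144 h, but was higher together with them at 120 h. In Del(CBS1-5) it was at 3.21 and 3.35 FPKM at 96 h, 4.98 and 4.83 at 120 h, and 13.4 and 13.6 at 144 h. Each of these lay above all wild-type libraries of its stage and set, and the change was called at 96 h (2.74 ± 0.65, adjusted p = 0.00435) and at 120 h (2.94 ± 0.65, adjusted p = 0.00401) but not at 144 h (1.57 ± 0.62, adjusted p = 0.0508). Leaving out either Del(CBS1-5) library ended the call at 96 h (adjusted p = 0.0514 and 0.0595) and at 120 h (adjusted p = 0.0586 and 0.0568). In the same libraries at 96 h, Cdh5 was at 0.128 and 0.146 FPKM and Tie1 at 0.0792 and 0.156. In Del(sub-TAD1) at 96 h Pecam1 was at 0.695, 2.78 and 3.50 FPKM, against 0.529, 0.517 and 0.609 in wild type of set 2 (1.64 ± 0.58, adjusted p = 0.0546). At 120 h that mutant had 0.460 and 0.609, inside the wild-type range of set 1. In Del(CBS1) and Del(CBS1-2) at 120 h it stayed at 0.342 to 0.575 FPKM, also inside that range (0.236 to 1.99), while Cdh5, Kdr and Tie1 were high.

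The pluripotency list was also high in some of the libraries with high Pecam1. Its 10 genes, which include Pou5f1 and Nanog, summed to 660 to 984 FPKM in the 6 Del(CBS1-5) libraries, with 8 of 10 genes called higher at 96 h and at 120 h, and 9 of 10 at 144 h. Over these libraries Pecam1 itself ran from 3.21 to 13.6 FPKM. The sums in Del(sub-TAD1) at 96 h were 122, 424 and 500 FPKM, in the order of the Pecam1 levels. Wild-type replicate 3, which had the highest Pecam1 among the wild type of set 1 at 96 h (1.32 FPKM) and at 120 h (1.99 FPKM), had sums of 368 and 364, where replicates 1 and 2 had 40.3 to 56.7. In Del(CBS1) and Del(CBS1-2) at 120 h the sums were 4.13 to 6.17 FPKM. Over the 61 libraries Pearson's r of log2 levels was 0.52 between Pecam1 and the pluripotency sum. It was 0.61 between Pecam1 and the summed list of other haematopoietic genes, and 0.78 between Pecam1 and the junction and surface list that contains it. Between Pecam1 and Cdh5 alone r was 0.70, and between Kdr and the pluripotency sum it was -0.08. These libraries share conditions and lines, and the values are a description. The part of pluripotent cells in the level of Pecam1 was not tested.

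**Figure D4:**
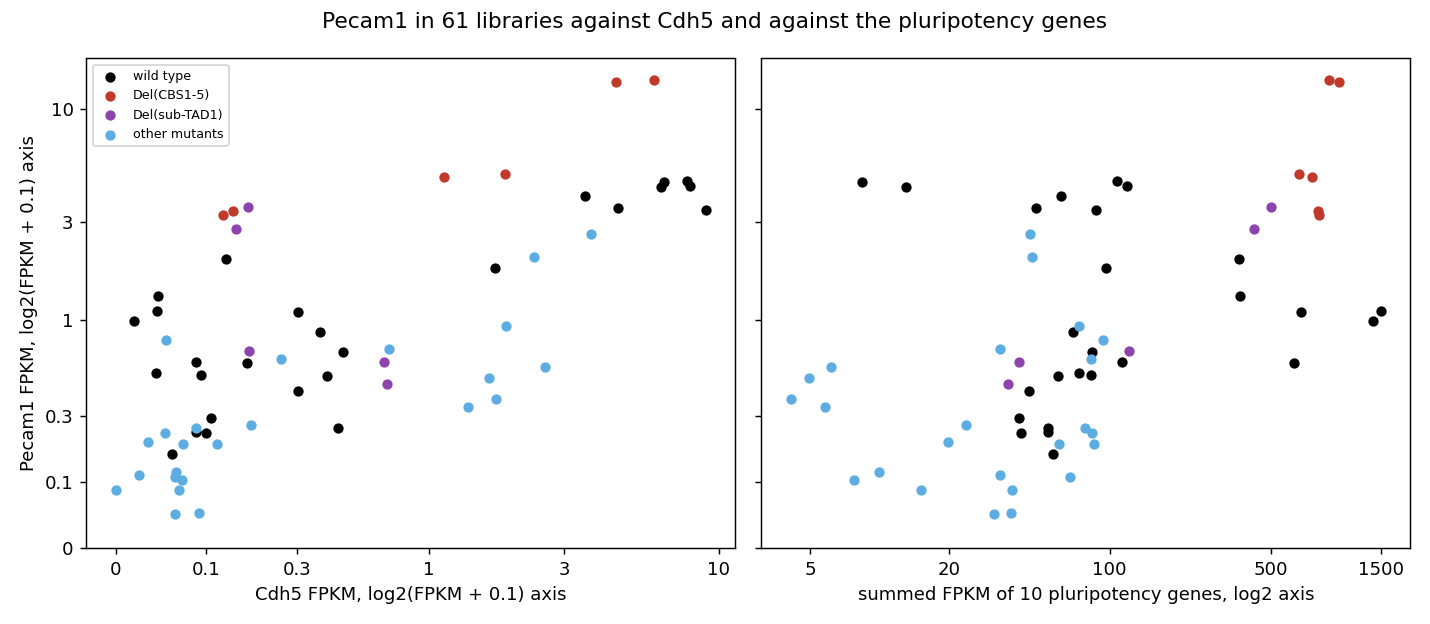
Pecam1 in 61 libraries against Cdh5 (left, both on log2(FPKM + 0.1) axes) and against the summed FPKM of 10 pluripotency genes (right, log2 axis), coloured by genotype. Del(CBS1-5) libraries have Pecam1 levels of 3.21 to 13.6 FPKM and pluripotency sums of 660 to 984 FPKM, and the wild-type libraries at 144 h have 4.34 to 4.63 FPKM of Pecam1.

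The genes whose log2 levels followed each member most closely over the 61 libraries were, for Cdh5, Tie1 (r = 0.96), Emcn (0.96) and Icam2 (0.95), and for Tie1, Cdh5, Esam (0.96) and Emcn (0.95). Kdr was closest to Tie1 (0.89), Cd93 (0.89) and Cdh5 (0.88), and Tal1 to Kdr (0.72), Sfrp5 (0.68) and Flt4 (0.68). These values changed little without time-course replicate 1 at 120 h (for Tal1 and Kdr, 0.68). Pecam1 was closest to Enpp3 (0.90), Nfib (0.89) and Dmrt1 (0.88), none of which is on the endothelial lists. Its r was 0.70 to Cdh5, 0.60 to Tie1 and 0.59 to Kdr. Etv2 was closest to Rnls (0.70), with an r of 0.55 to Kdr and 0.35 to Cdh5. Runx1 was closest to Notch2 (0.76), and its r to Cdh5, Tie1 and Kdr lay between 0.06 and 0.15. Gata1 had no gene above 0.56. For Hbb-bh1 and Hba-x, each above 0 in at most 4 libraries, r rests on those libraries and is not read.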

How the data were processed

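RNA-seq of 61 stembryo libraries was re-analysed. Groups and replicate numbers came from the sample titles. The members and gene lists were chosen with earlier results of these data known. Per the paper's methods, the authors' libraries were stranded and poly-A selected. Paired reads (75 bases) were trimmed with cutadapt 1.16 and mapped to mm10 with STAR 2.7.7a, and uniquely mapped ones went into Cufflinks 2.2.1 with transcripts based on Ensembl 102. Deposited per gene were FPKM, which the authors had scaled to transcript length and mapped fragments. No counts were used. For 25 identifiers with more than 1 row, the series table holds the sum.

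Depth was inferred from the steps of FPKM at low levels (up to 10 fragments, genes of 1 transcript of at least 1000 bases). The share of such values within 0.02 of a whole number was 67.2% to 71.8% in libraries of set 1 and 92.6% to 98.1% in those of set 2. The depth is thus an estimate, and a weaker one in set 1. The sources used here do not say why the sets differ, and the reason was not tested. Log2(FPKM + 0.1) was fitted with limma 3.58.1 in R 4.3.3, for 17098 genes that averaged 1 FPKM or more in at least 1 condition, once with a coefficient per labelled condition (time course) and once per genotype, stage and library set (mutants). P-values were two-sided and adjusted over all genes tested. The fit was tested on simulated data. Alternatives were a pseudocount of 0.01 or 1 FPKM, no filter, centring on the median, a trended and robust fit, only the compared groups, a replicate block, controls outside the time course, and leaving out each library. Beside the 10 members, at most 4 called genes per list and comparison with the largest change were named, and 3 genes of most like pattern per member. Tables were handled in R with data.table (version 1.17.8) and in Python 3.11.15 with scipy 1.17.1, numpy 2.4.6 and pandas 2.3.3. Figures were drawn with matplotlib 3.10.9.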

Additional observations from a re-analysis of the deposited data

Results flagged for a closer look

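Among 17 sets of 4 libraries and 1 gene checked with Dixon's test, 4 had a library far from the other 3, where chance gives about 1 in 20. For 2 of these (Gata1 at 96 h and Hba-x at 120 h) the other 3 libraries are all at 0, so that any value above 0 meets the criterion and the count cannot be read against chance. Cdh5 at 120 h outside the time course was at 0.376 FPKM in replicate 4, the library of set 2, and at 0.0987 to 0.133 in the others. The remaining ones lie at levels of a few fragments at most: Gata1 at 96 h (0.102 FPKM in replicate 1, 0 in the others), Gata1 at 120 h (0 in replicate 1, 0.0225 to 0.0261 in the others) and Hba-x at 120 h (0.0653 in replicate 1, 0 in the others). The effect of Del(CBS1-5) on Cdh5 differed between 120 h and 144 h by -3.32 ± 0.93 on the log2 scale (adjusted p = 0.0228, limma), as described in the results. It was called in no fit that left out replicate 1 of Del(CBS1-5) at 120 h or either of its libraries at 144 h.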

How the results depend on the processing

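The number of members called, 4 for the time-course steps, 11 for the mutants, 1 for the effects at 2 stages and 0 for wild type at 120 h against 96 h, became 7, 7 and 0 with a pseudocount of 1 FPKM, and the effects at 2 stages became 2 with 0.01 FPKM. Without the filter the time-course steps had 7 calls. Fitting the compared groups alone gave 0, 3 and 9. Leaving out a library gave 2 to 13 calls for the steps, 8 to 17 for the mutants and 0 to 5 for the effects at 2 stages: without time-course replicate 1 at 120 h the last 2 were 17 and 5, without time-course replicate 2 at 120 h the steps had 13, and without either time-course library at 144 h they had 2. Without time-course replicate 2 at 120 h, 9.64% of all genes were called from 108 h to 120 h and 7.93% from 120 h to 132 h. The effects at 2 stages had 2 calls without wild-type replicate 3 or 4 at 96 h or replicate 4 at 120 h, and 0 without Del(CBS1-5) replicate 1 at 120 h or either of its libraries at 144 h. Wild type at 120 h against 96 h had 0 under each alternative. Against all wild-type libraries outside the time course, which mixes the library sets, the mutants had 16 calls: Etv2, Kdr and Tie1 were called beside Cdh5 in Del(CBS1), Del(CBS1-2) and Del(CBS1-5), Pecam1 was added in Del(sub-TAD1) at 96 h, and Del(CBS4) kept only its Pecam1 call (-1.60 ± 0.63, adjusted p = 0.0434, limma). With these controls the shares of all genes called at 120 h were 2.1% for Del(CBS1), 2.35% for Del(CBS1-2) and 13.3% for Del(CBS1-5). They were 37.5% for Del(CBS4) at 120 h and 40.0% for Del(sub-TAD1) at 96 h, against 12.4% and 14.1% within the sets. The Etv2 effect of Del(CBS1-5) at 2 stages was then called (adjusted p = 0.0137, limma), beside 7.07% of all genes. The Cdh5 effect of Del(CBS1-5) at 2 stages was -2.89 ± 0.93 (adjusted p = 0.0512). For the called members, 28 tests under the other settings lost the call and 96 kept it, 41 with a library left out lost it and 41 kept it, and none changed direction. Replicate numbers did not pair the libraries (correlations of same-numbered deviations over 0.1 in 0 of 17 mutant pairs and 1 of 28 stage pairs), and with the replicate block the counts were 8, 17 and 2. At depths of 15 M to 39.0 M fragments, genes of under 1 FPKM rest on few fragments.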

Other observations

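Lmo2, a LIM-domain partner of Tal1, was highest at 84 h among the stages given here. In wild type of set 2 it was at 11.5 to 12.7 FPKM at 72 h, 39.3 to 42.7 at 84 h, 6.83 to 24.1 at 120 h and 4.29 to 4.56 at 168 h. It rose by 1.75 ± 0.35 on the log2 scale from 72 h to 84 h (adjusted p = 0.000305, limma) and fell by 1.90 ± 0.35 from 144 h to 168 h (adjusted p = 0.000202). Aplnr, the apelin receptor of mesodermal progenitors, was at 13.2 to 32.2 FPKM at 72 h, 82.9 to 85.2 at 84 h and 2.74 to 3.14 at 168 h. It rose by 2.02 ± 0.32 from 72 h to 84 h (adjusted p = 1.24e-05) and fell by 1.83 ± 0.32 from 96 h to 108 h (adjusted p = 0.000179).

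Gja5, a gap junction gene of arterial endothelium and heart, was listed at 0 in all wild-type libraries of stages other than 144 h, where it ranged from 0 to 2.89 FPKM over 4 libraries. At 144 h it was at 2.18 and 2.34 FPKM in Del(CBS1-5) and listed at 0 in both Del(CBS4) libraries. Gja5 at 0 can be a failed estimate, so no fold is given.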
